A study of Drosophila melanogaster with 5 samples.

Results

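In whole third-instar larvae of Drosophila melanogaster that lack normal function of dDP, 193 of the 16637 transcripts on the array were dim in wild-type larvae and brighter on every mutant array. Each of the 193 was chosen from the deposited values themselves: both wild-type values lay below 9 on the log2 scale, and the lowest mutant value exceeded the highest wild-type value by at least 1, a distance called the gap below. The values that chose them are therefore given as a description, and nothing is supported with them. The samples were 3 arrays of dDPa3/dDPa4 transheterozygous mutant larvae, which carry the replicate numbers 1 to 3, and 2 arrays of w1118 wild-type larvae, numbered 1 and 3. Larvae of both genotypes grew on regular medium without added reagents, and total RNA was labelled with Cy3 and hybridised to single-colour NimbleGen expression arrays. The sample titles speak of a knockdown and the genotype field of a mutant, and the genotype field was followed. The labels do not say how the replicates were collected, and p-values then reflect just the spread of these arrays, which may be technical.

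E2F transcription factors bind DNA as dimers with DP. Flies have an E2F that mainly activates genes of the cell cycle and another that mainly represses, and both depend on DP. The repressing form works in a complex with retinoblastoma-family proteins, Myb and the MuvB proteins, known as dREAM, which keeps developmental genes silent in cells that do not use them, among them genes of the germline. In larvae DP is known to act in muscle and fat body as well as in dividing tissues.

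The transcripts are named here by FlyBase transcript identifier, because the table of gene names used paired 44 of the 16637 identifiers with a gene and none of the 193. None of those 44 was dim in wild type either. The level of dDP, the marker genes of larval tissues and lists of replication, mitosis, apoptosis, germline and stress genes were therefore not analysed here. In RNA of whole larvae, more cells of a type and more RNA per cell cannot be told apart. Array medians lay between 11.64 and 11.69, so these values would not show a shift common to most transcripts. Across all transcripts, arrays of the mutant correlated at 0.957 to 0.972 and the wild-type arrays at 0.986. Arrays of different genotype correlated at 0.927 to 0.965. The ranges overlap: mutant replicate 2 and wild-type replicate 1 reached 0.965, above the 0.957 of mutant replicates 1 and 3.

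The transcript with the widest gap was FBtr0083508. Its values were 12.23, 12.16 and 13.06 in mutant replicates 1, 2 and 3, against 6.71 and 6.98 in wild-type replicates 1 and 3. Its lowest mutant value lay 5.18 above its highest wild-type value, and its means differed by 5.64 (standard error 0.33, adjusted p = 0.0138 by limma). The mutant values spanned less than 1, and the genotypes lay far apart. The transcript with the next widest gap was FBtr0077271, with 12.27, 10.96 and 11.80 in mutant replicates 1, 2 and 3, against 5.98 and 6.06 in wild-type replicates 1 and 3. Its gap was 4.91 and its means differed by 5.66 (standard error 0.40, adjusted p = 0.0154 by limma). Among transcripts with both wild-type values below 9, the medians were 6.95 and 6.90 on wild-type replicates 1 and 3. Their lower quartiles were 6.09 and 6.02, and the lowest values on these arrays 5.04 and 5.00. FBtr0083508 thus lay near the median of these dim transcripts in wild type, and FBtr0077271 near their lower quartile. In mutant larvae the mean values of both transcripts lay near or above the array median. Both p-values come from the contrast that chose the transcripts. Without mutant replicate 2, mutant replicate 3, wild-type replicate 1 or wild-type replicate 3, neither transcript passed the threshold of 0.05, with adjusted p up to 0.135 for FBtr0083508 and 0.163 for FBtr0077271.

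Over all 193 transcripts, the median value was 9.999 in mutant replicate 1, 9.93 in mutant replicate 2 and 10.10 in mutant replicate 3, against 7.38 in wild-type replicate 1 and 7.43 in wild-type replicate 3. Each mutant array thus showed the group at nearly the same level. The median difference of means was 2.34 on the log2 scale, which corresponds to 5.07-fold, with a range of 1.18 to 5.69. Over the 3350 transcripts with both wild-type values below 9 the median difference was 0.10, and over all 16637 transcripts it was 0.01. The difference of means reached 2 in 139 of the 193 and 4 in 19.

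**Figure D1:**
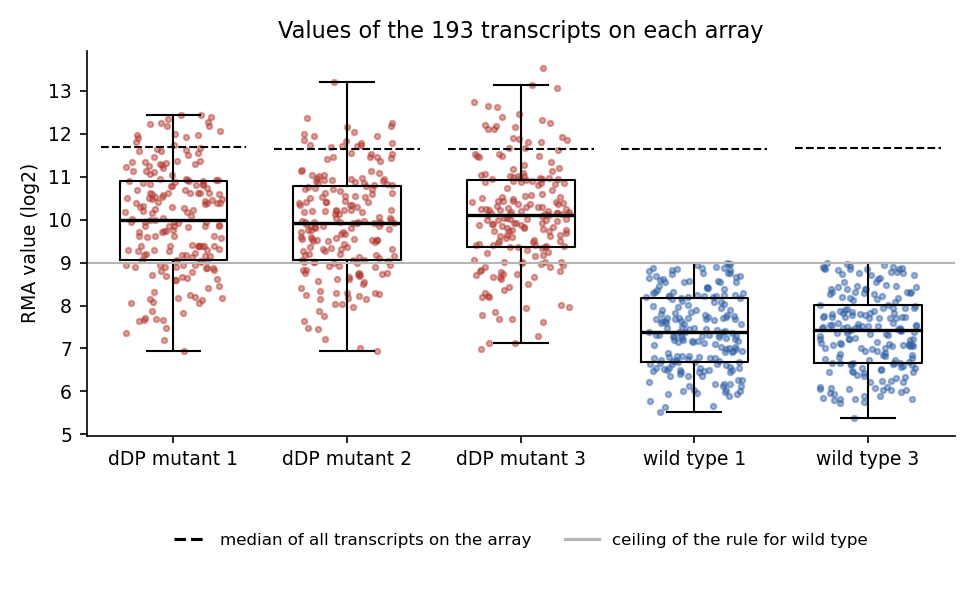
Values of the 193 transcripts on each array, on the log2 scale: points are transcripts, boxes give quartiles and median, and whiskers reach the farthest value within 1.5 box heights. Medians are 9.999, 9.93 and 10.10 on the mutant arrays and 7.38 and 7.43 on the wild-type arrays, and most mutant values stay below the dashed median of all transcripts.

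The raised transcripts remained of low to moderate signal in the mutant. Ranks within an array describe signal, which depends on the probes too, and give no measure of RNA amount. The group's median stood at percentile 30.6, 28.7 and 31.1 of mutant replicates 1, 2 and 3, against 12.3 and 12.9 of wild-type replicates 1 and 3. All 3 mutant values were at least 9 for 130 of the transcripts, all were below 9 for 22, and 41 lay on both sides. For 6 of the 193, all 3 mutant values exceeded the array median, and for 32 at least 1 did. Whether the wild-type values lay above background was not tested, so these values do not show which transcripts were absent from wild-type larvae.

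How far transcripts lay above wild type varied within the group. The gap was under 1.5 for 71 transcripts, from 1.5 to 2 for 50, from 2 to 3 for 50, from 3 to 4 for 13 and larger for 9. Its median was 1.73, or 3.32-fold. Just inside the limit, a transcript had 10.18, 9.49 and 9.92 in mutant replicates 1, 2 and 3, against 8.46 and 8.47 in wild-type replicates 1 and 3, a gap of 1.01. Just outside it, another had 12.09, 11.57 and 9.99 in mutant replicates 1, 2 and 3, against 8.73 and 8.99 in wild-type replicates 1 and 3, a gap of 0.996. The transcript left out had the higher mutant mean of the pair, and a single mutant value kept it out. At the ceiling for wild type, the last transcript inside had 10.09, 10.30 and 10.15 in mutant replicates 1, 2 and 3, against 8.98 and 8.62 in wild-type replicates 1 and 3. The first outside had 10.88, 10.81 and 11.58 in mutant replicates 1, 2 and 3, against 9.0003 and 8.72 in wild-type replicates 1 and 3. In all, 389 transcripts had a gap of at least 1 (2.34% of 16637), and the ceiling divided them into the 193 and 196 that were brighter in wild type.

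**Figure D2:**
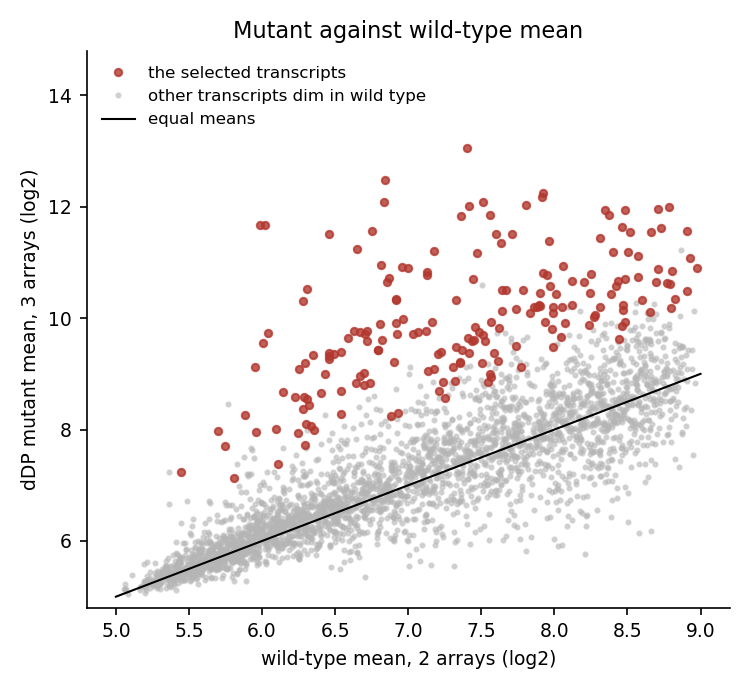
Mean of the 3 mutant arrays against the mean of the 2 wild-type arrays, both on the log2 scale, for the 3350 transcripts with both wild-type values below 9. The 193 selected transcripts lie above the line of equal means by 1.18 to 5.69, while the others scatter about it.

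The group held transcripts from the whole dim range of wild-type signal. Among transcripts with a wild-type mean from 5 to 6, 8 of 757 belonged to it (1.06%), from 6 to 7 63 of 971 (6.49%), from 7 to 8 72 of 874 (8.24%) and from 8 to 9 50 of 748 (6.68%). The median mutant mean of the selected transcripts was 7.97, 9.37, 9.93 and 10.65 in these 4 bands, from dimmest to brightest, against wild-type medians of 5.84, 6.59, 7.54 and 8.47. Differences between the bands were not tested, and the rule itself demands higher mutant values where wild type is brighter. The median difference was 2.15, 2.85, 2.32 and 2.16 in the same bands.

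Among dim transcripts, wide gaps in the opposite direction were fewer. With both wild-type values below 9, 193 of 3350 transcripts had mutant values higher by a gap of at least 1 (5.76%). With the roles turned round, so that all 3 mutant values lay below 9, 54 of 3015 had mutant values lower by a gap of at least 1 (1.79%). The gap reached 2 in 72 of the 193 raised transcripts (37.3%) and in 7 of those 54 (12.96%). It reached 3 in 22 of the raised transcripts and in 1 of the lowered ones. Without regard to size, all mutant values were higher than both wild-type values in 884 of the 3350 (26.4%), against 21.6% of all transcripts. In the turned comparison they were lower than both in 612 of 3015 (20.3%). The share of lowered transcripts over the whole table is not given here. The lower number of lowered transcripts therefore cannot be called a trait of the dim ones. The ceiling spans 3 arrays in the turned comparison and 2 in the other, and the difference between the directions was not tested.

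**Figure D3:**
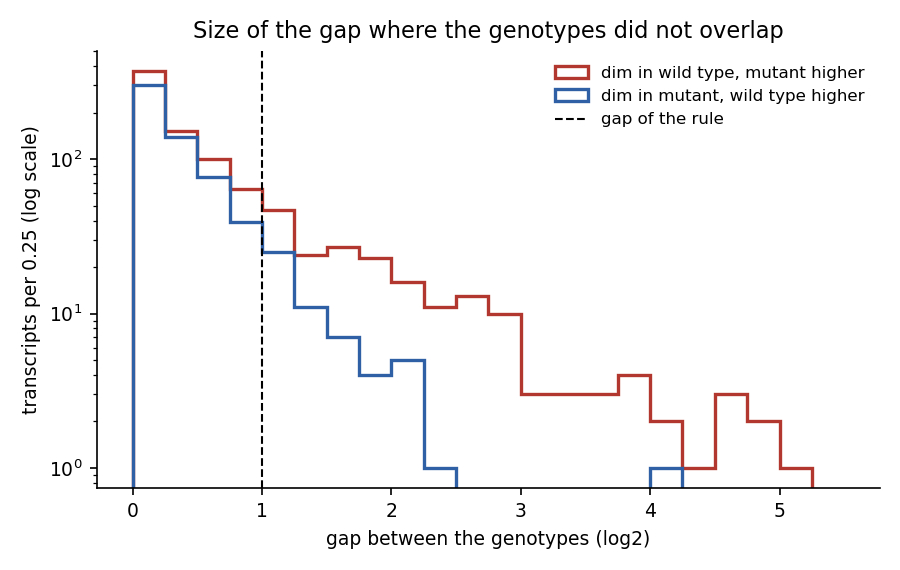
Number of transcripts, on a log axis, by the size of the gap between the genotypes on the log2 scale, where the arrays of the genotypes did not overlap: transcripts dim in wild type and higher in the mutant, and transcripts dim in the mutant and higher in wild type. Past the dashed limit of 1 there are 193 of the first kind and 54 of the second, and past 3 there are 22 and 1.

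By SD and by the span of the mutant values, the selected transcripts spread more than dim transcripts in general. The median SD among the 3 mutant arrays was 0.42 for the selected transcripts, and the median SD between the 2 wild-type arrays was 0.20. Over all 3350 dim transcripts these medians were 0.32 and 0.16, and over all transcripts 0.30 and 0.14. An SD of 2 values tends to be smaller than one of 3, and these differences were not tested. The 3 mutant values spanned less than 0.5 for 49 of the 193 transcripts (25.4%), against 40.3% of the dim transcripts, and more than 1 for 69 (35.8%), against 24.2%. The widest span was 2.78. For 171 of the 193 (88.6%) the gap was larger than the range within either genotype. The gap of at least 1 that the rule demands already exceeds their median mutant range of 0.81, so nothing is read from this count. The wild-type arrays lay more than 1 apart for 7 of the 193 (3.63%), against 3.61% of the dim transcripts and 3.22% of all transcripts. By this count the selected transcripts did not spread more.

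Each mutant array was the lowest for some of the group and the highest for others. The lowest mutant value was that of replicate 1 for 69 transcripts, of replicate 2 for 77 and of replicate 3 for 47. The highest was that of replicate 1 for 73, of replicate 2 for 38 and of replicate 3 for 82. Over all dim transcripts replicate 2 was lowest for 44.7% and replicate 1 highest for 48.9%. One array stood more than 1 above both others for 5 transcripts in replicate 1, 0 in replicate 2 and 8 in replicate 3. The median difference from the wild-type mean was 2.41, 2.36 and 2.50 for mutant replicates 1, 2 and 3.

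The 193 transcripts were chosen on all 5 arrays, so no array is independent of their choice. Wider sets were therefore chosen by the same rule on 2 mutant arrays and 1 wild-type array, which gave between 326 and 410 transcripts. The mutant array and the wild-type array that had been kept out then differed by at least 1, mutant higher, for 59.5% to 81.8% of them over the 6 possible pairs. Over all transcripts below 9 on the wild-type array used for choosing, the same share was 10.97% to 18.8%. The median difference on the pair kept out was 1.29 to 1.89 for the chosen transcripts, against -0.03 to 0.21 for all dim ones. The lowest share was found with mutant replicate 2 and wild-type replicate 1 kept out, where 244 of 410 reached 1 and 361 were higher in the mutant. Each wider set holds the 193 transcripts, all of which reach 1 on the pair kept out by construction, so the shares describe the wider sets and give no separate measure of the 193. Each pair is 1 array of each genotype and the 6 choices overlap, so no test was made.

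**Figure D4:**
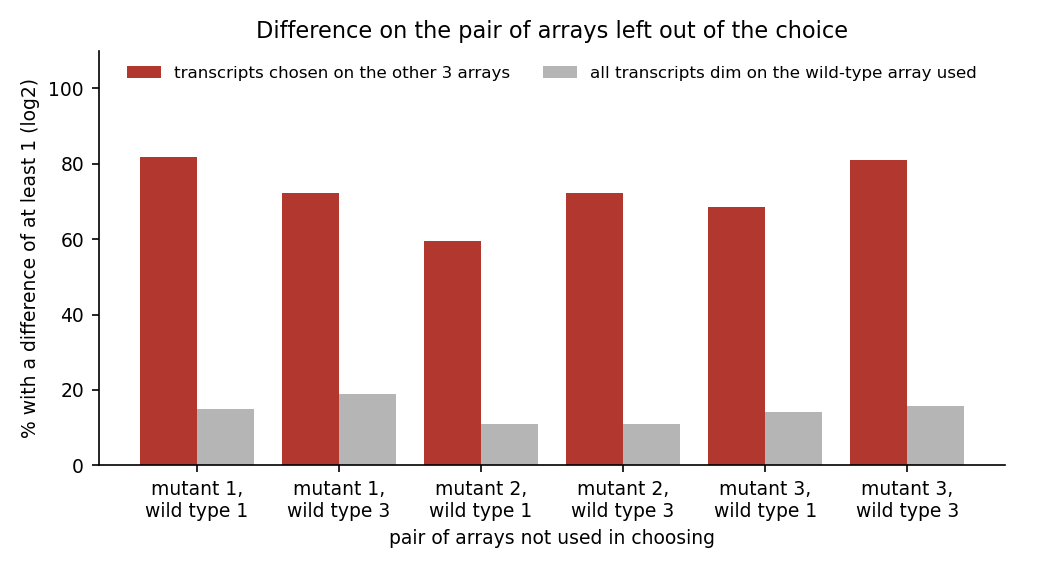
Percent of transcripts whose mutant value exceeded the wild-type value by at least 1 on the log2 scale, on the pair of arrays kept out of the choice. Bars stand for transcripts chosen on the other 3 arrays, at 59.5% to 81.8%, and for all transcripts below 9 on the wild-type array used, at 10.97% to 18.8%.

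Keeping out a mutant array alone gave 224, 235 and 237 chosen transcripts without replicates 1, 2 and 3. Of these, 222, 232 and 233 were still above both wild-type arrays on the array kept out, and 193 were so by at least 1, which are the selected transcripts by construction. Among all dim transcripts, 58.7%, 38.8% and 49.6% were above both wild-type arrays on mutant replicates 1, 2 and 3, and 12.7%, 9.10% and 11.7% were so by at least 1. The wild-type values used here had also served in the choice. With wild-type replicate 1 kept out, 292 transcripts were chosen, and for 209 (71.6%) the lowest mutant value lay at least 1 above the value kept out. With wild-type replicate 3 kept out, this held for 212 of 282 (75.2%). Against these stood 7.14% and 7.52% of all transcripts below 9 on the wild-type array used. Both sets hold the 193, which reach this distance by construction, and the mutant values compared had also served in choosing. These shares therefore give no separate measure of the 193.

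In the fit across all 16637 transcripts, 236 were called higher in the mutant (1.42%; limma with Benjamini-Hochberg adjustment, adjusted p below 0.05) and 35 lower (0.21%). A replicate block gave 331 higher and 527 lower calls, so that lower calls were then the more numerous, and array weights gave 558 and 125. Of the 193 selected transcripts 115 were called (59.6%), and these were all the higher calls among the 3350 dim transcripts (3.43%). The same contrast chose the transcripts, so nothing is read from these shares. The 78 that were not called had a median difference of 2.17 and a median SD among mutant arrays of 0.61, against 2.64 and 0.31 for the 115 that were. Adjusted p-values of the group lay between 0.0136 and 0.236. Without mutant replicate 1 the fit called 70 of the 193, and 102 of all 16637 transcripts were called higher. Without mutant replicate 2 or mutant replicate 3 limma called 0 of the 193 and 0 of all transcripts higher. At an unadjusted p below 0.05, 193 and 193 of the selected transcripts passed by limma, beside 1605 and 1614 of all 16637 that were higher. The same contrast chose the 193, so nothing is read from these counts either. Leaving out wild-type replicate 1 or 3 left a single wild-type array, and the median difference over the 193 was then 2.42 or 2.34.

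Some of the selected transcripts stood beside each other by identifier number, a property the rule did not use, while 163 of the 193 did not. This was examined after the data had been seen. Of the 193, 30 (15.5%) formed 13 runs of consecutive numbers, made up of 10 pairs, 2 runs of 3 and 1 run of 4. The table held 329 identifiers that differ by 1 from a selected one, counting a neighbour once for each side, and 34 of them (10.3%) were themselves selected, against 1.16% of all transcripts. At distances of 2 and 3 the shares were 3.40% and 4.90%. At the distances examined from 4 to 20 they lay between 0.709% and 2.13%, and at 50 the share was 0%, or 0 of 266. Dim signal, which the rule did use, was shared by neighbours too. Of the 329 at distance 1, 102 (31.0%) were dim in wild type, against 20.1% of all transcripts. Among these 102, 33.3% were selected, against 5.76% of the 3350 dim transcripts. These shares were not tested. The files do not say whether consecutive identifiers belong to 1 gene, in which case their probes could overlap, so the members of a run are not independent.

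Runs did not move as a single value. In the run of 4, the first transcript had 8.78, 10.87 and 11.26 in mutant replicates 1, 2 and 3, against 6.48 and 6.08 in wild-type replicates 1 and 3. The second had 11.74, 11.96 and 12.15 in the mutant replicates in the same order, against 8.82 and 7.87 in the wild-type replicates. The order of the mutant arrays turned round in the third, which had 11.35, 10.91 and 10.37, against 8.96 and 8.46 in wild type. The fourth had 11.05, 10.41 and 9.87 in the mutant, against 7.86 and 7.94 in wild type. In the first run of 3, the mean differences were 4.22, 4.32 and 2.68. In the other run of 3 they were 1.32, 2.88 and 2.56. Within the 13 runs the largest and smallest mean difference lay 0.06 to 2.87 apart, with a median of 1.56.

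**Figure D5:**
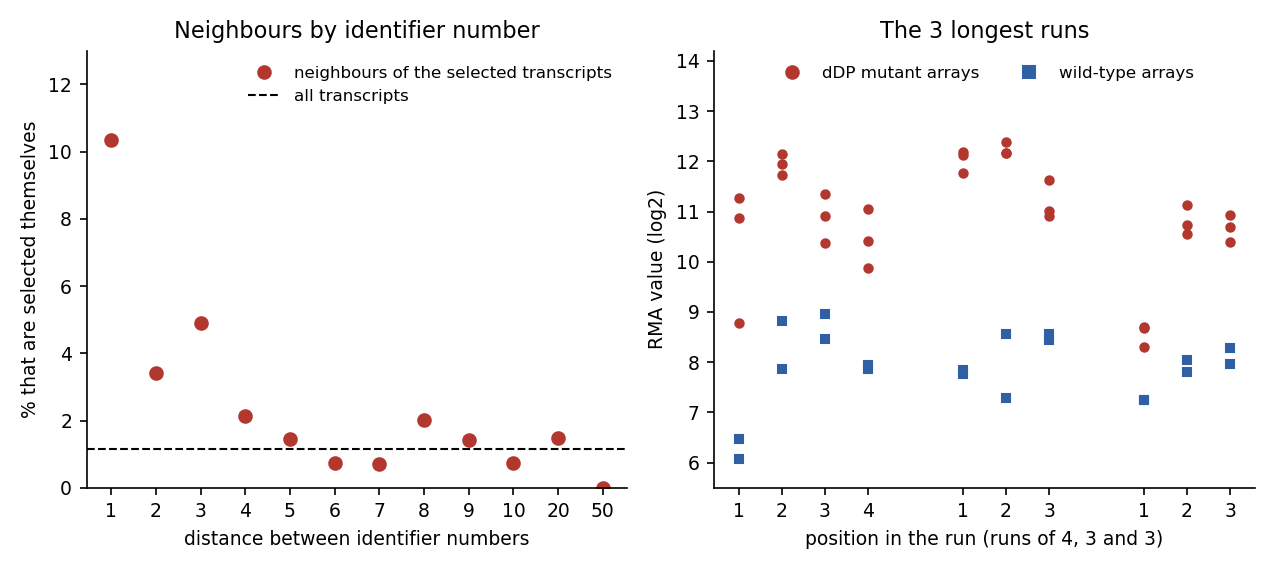
Left, percent of identifiers at a given number distance from a selected transcript that are selected themselves, 10.3% at distance 1, with the dashed line at the 1.16% of all transcripts. Right, log2 values on each array for the run of 4 and both runs of 3, in which every mutant value lies above the wild-type values of the same transcript.

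Over all 329 neighbours at distance 1, selected or not, limma called 27 higher in the mutant (8.21%) at an adjusted p below 0.05, against 1.42% of all transcripts. All mutant values were higher than both wild-type values for 112 of them (34.0%), against 21.6% of all transcripts. At distances of 2 and 3, 3.06% and 5.94% of neighbours were called higher. At the distances examined from 4 to 20 the share lay between 0.368% (at 10) and 3.19% (at 4), without a steady fall. It was 2.58% at 20 and 0.376% at 50. Selected transcripts are counted among these neighbours, 34 of the 329 at distance 1. Their mutant values are all higher by the rule, so both shares at distance 1 are raised in part by the choice itself. Among 294 neighbours at distance 1 that were not selected, limma called 3 higher in the mutant at an adjusted p below 0.05. That share is no larger than the 1.42% of all transcripts (236 of 16637). Most of the 27 calls were thus of selected transcripts. The 294 had a median difference of 0.08. For 78 of the 294 all mutant values were higher than both wild-type values, beside 3592 of all 16637 transcripts (21.6%). The shares were not tested. Neighbourhood was not a property of the dim group alone. Among the 196 transcripts with a gap of at least 1 that were brighter in wild type, 40 of 317 neighbours (12.6%) belonged to the same set, which is 1.18% of all transcripts. Over all 12790 pairs of consecutive identifiers the mean differences correlated at r = 0.20 and the wild-type means at r = 0.28, and at a distance of 50 the correlations were -0.01 and 0.07. Consecutive identifiers share arrays and may share probes, so these correlations describe the table.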

How the data were processed

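The deposited log2 values, 1 per transcript and array, were made by the authors with RMA and the package oligo, per the submitters' processing notes. The sources used here state neither the base of the logarithm, which was taken to be 2 as RMA writes it, nor the genome build or annotation release. Another base would change every fold. All 5 columns of the table belong to the 5 arrays. Gene names were looked up in the RefSeq gene table of Release 6 plus ISO1 MT. The rule was applied to the values as deposited. The test across transcripts was limma 3.58.1 (R 4.3.3; lmFit and eBayes, genotype as the only term, all 5 arrays, no filter, Benjamini-Hochberg adjustment, 3 residual degrees of freedom), tested on simulated data. Precision is limited by the number of arrays. The members, the lists and the tests were chosen with earlier results of these data known. Transcripts named were the 2 with the widest gap, since none had a gene name. Keeping out a mutant and a wild-type array together, the turned rule and the identifier neighbours were added after the data were seen. Alternatives were other limits of the rule, 3 normalisations, trend and robust moderation, array weights, a filter on the dimmest 25%, the replicate number as a block, and each array left out. No label gives replicate numbers a meaning across genotypes. For want of such a label, the main fit did not pair the arrays. Same-numbered arrays deviated together at r = 0.52 and 0.21 across transcripts, and mutant replicate 2 with wild-type replicate 3 at 0.40. Deviations of 2 wild-type arrays are exact opposites, and those of the mutant arrays are tied to each other. The 0.40 is therefore partly forced, and these correlations cannot show whether the numbers pair the arrays. Labels of slide or scan were not used here.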

Additional observations from a re-analysis of the deposited data

How the results depend on the processing

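The number of selected transcripts (193) was 126 with a wild-type ceiling of 8, 262 with one of 10, 357 with a gap of 0.5 and 72 with a gap of 2. Normalising the deposited values again gave 185 to 195, of which 175 to 193 were among the 193, and counting each run of consecutive identifiers once, added after seeing the data, gave 176. Leaving out an array gave 224 to 292, since a rule on fewer arrays is easier to meet. Array weights raised the calls to 558 higher and 125 lower, with 181 of the 193 called, and without the dimmest 25% there were 14 lower calls and 46 of the 58 selected transcripts left in the table were called. Leaving out an array gave 0 to 102 higher calls, 0 to 16 lower calls and 0 to 70 of the 193, by limma at an adjusted p below 0.05, with 886 to 1644 higher and 333 to 1382 lower at an unadjusted p below 0.05. With the replicate number as a block, 331 were called higher and 527 lower, and 151 of the 193, on fewer residual degrees of freedom. Whether same-numbered arrays share more than a number is not known from the labels. The median difference over the 193 was 2.34 to 2.42 without an array, 2.40 within replicate numbers and 2.28 to 2.34 under other normalisations. The difference of FBtr0083508 was 5.35 to 5.80 over 13 settings and that of FBtr0077271 5.32 to 6.02 over 12, since the filter on the dimmest 25% removed it. The cause was not tested for any of these shifts. No background signals were used, so the dimmest values have no measured floor.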
